A study of Homo sapiens with 6 samples.

Results

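The clustered protocadherins are a family of cell-surface adhesion proteins encoded in 3 adjacent gene clusters, alpha, beta and gamma, on chromosome 5. The members were the rows of the count matrix whose Ensembl identifier maps to a protein-coding symbol starting with PCDHA, PCDHB, PCDHGA, PCDHGB or PCDHGC. This rule found 53 genes among 64252 rows, 15 of the alpha, 16 of the beta and 22 of the gamma cluster, and left out 7 symbols of pseudogenes and an antisense gene. The rule used no measured value. The alpha cluster runs from 140786136 to 141012347 on chromosome 5, the beta cluster from 141051135 to 141249365 and the gamma cluster from 141330571 to 141512981 (hg38, GENCODE release 29), and every member lies on the plus strand.

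Clustered protocadherins are transmembrane cadherins, and many of them bind an identical copy of themselves on the facing cell. In the alpha and gamma clusters, every member has its own promoter and a large variable exon that encodes the extracellular part, and this exon is spliced to constant exons shared by the whole cluster. Beta members are single-exon genes with no constant part. Neurons choose a small subset of these promoters, a choice linked to DNA methylation, CTCF and cohesin, and the subset gives each cell a surface identity used in self-avoidance of its branches. The C-type members, PCDHAC1 and PCDHAC2 at the end of the alpha cluster and PCDHGC3, PCDHGC4 and PCDHGC5 at the end of the gamma cluster, are expressed more broadly and less by chance choice.

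All 6 libraries are bulk RNA sequencing of the neuroblastoma line SK-N-BE(2), a human line with amplified MYCN. There were 3 groups of 2 libraries: cells with short hairpin RNA 1 against BCAT1 (shBCAT1#1, called hairpin 1 here), cells with hairpin 2 against BCAT1 (shBCAT1#2), and cells with a control hairpin (shControl, also given as shNC). BCAT1 transfers the amino group of leucine, isoleucine and valine in the cytosol. The labels give no time after delivery of the hairpins and do not say whether replicates were separate cultures, so a p-value here reflects only how these samples spread, which may be technical.

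Total counts were 38528990 and 32333416 with hairpin 1, 39028395 and 37637699 with hairpin 2, and 39321388 and 38588163 with the control hairpin. BCAT1 mRNA averaged 55.5 ± 0.31 CPM (counts scaled to library size) with hairpin 1, 113 ± 3.1 CPM with hairpin 2 and 467 ± 12 CPM in controls (SD, n = 2 each), so the targeted gene went the way of the labels in all 6 libraries. Noradrenergic neuroblastoma markers (PHOX2A, HAND2, GATA3, DBH and TH) were all at 1 CPM or more, and summed to 946 and 992 CPM with hairpin 1, 891 and 881 CPM with hairpin 2, and 1187 and 1126 CPM in controls. Of a list of 6 fibroblast genes, 5 averaged 1 CPM or more in this line. This list summed to 803 and 803 CPM with hairpin 1, 907 and 906 CPM with hairpin 2, and 1214 and 1231 CPM in controls. Both sums were lower in all 4 knockdown libraries than in controls. The noradrenergic genes did not move as one: PHOX2A and HAND2 fell and GATA3 rose with both hairpins. DBH stood at 76.4 and 76.3 CPM with hairpin 1, 16.5 and 13.7 CPM with hairpin 2, and 38.2 and 36.9 CPM in controls, and TH too was called higher with hairpin 1 and lower with hairpin 2. The levels of these lists moved with the groups, and their part in the results below was not tested. Summed epithelial markers ran from 17.7 to 26.4 CPM, Schwann cell precursor and melanocyte markers from 6.89 to 10.9 CPM with SOX10 at 0, endothelial markers from 0.0991 to 0.463 CPM, and leukocyte markers from 0.334 to 0.77 CPM with CD3E at 0.

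Counts of an alpha or gamma member cannot be fully separated from those of its neighbours. A median of 46.5% of an alpha member's exonic bases (19.2% to 56.6%) and 43.9% of a gamma member's (27.6% to 64.4%) also belong to another member, whereas beta members share none. How reads in these shared exons were assigned is not given in the sources used here, so values of alpha and gamma members are uncertain to that extent. Some members also overlap genes that are not members. PCDHA10 overlaps PCDHA14, which the rule left out, and an unnamed gene over 18.0% of its exonic bases. PCDHB16 overlaps unnamed genes over 24.9% of its exonic bases. Whether counting used strand is not given either.

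Of the 53 members, 51 had a count in all 6 libraries and 50 passed the filter on low counts, while PCDHA4, PCDHA6 and PCDHGB5 did not. PCDHB1 passed only through its hairpin 2 libraries, PCDHA5 only through those of hairpin 1 and PCDHA7 only through the controls, in each case the group where the gene was highest, so tests of these genes are not independent of the filter. PCDHA9 (control counts of 7 and 8) and PCDHGB3 (control counts of 9 and 7) passed only through knockdown libraries, where they were higher. Tests of these genes against control are likewise not independent of the filter. Per kilobase of exon, averaged over the 6 libraries, the level of PCDHGC3 was 59.8 CPM, that of PCDHAC2 22.7 CPM and that of PCDHB16 8.53 CPM. PCDHB14 stood at 5.07 CPM per kilobase, PCDHAC1 at 4.82, PCDHB4 at 4.10 and PCDHA11 at 3.62. The remaining 46 members were below 2 CPM per kilobase, 38 of them below 1. Transcription was thus concentrated in a few members, with a C-type gene leading each of the alpha and gamma clusters.

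**Figure D1:**
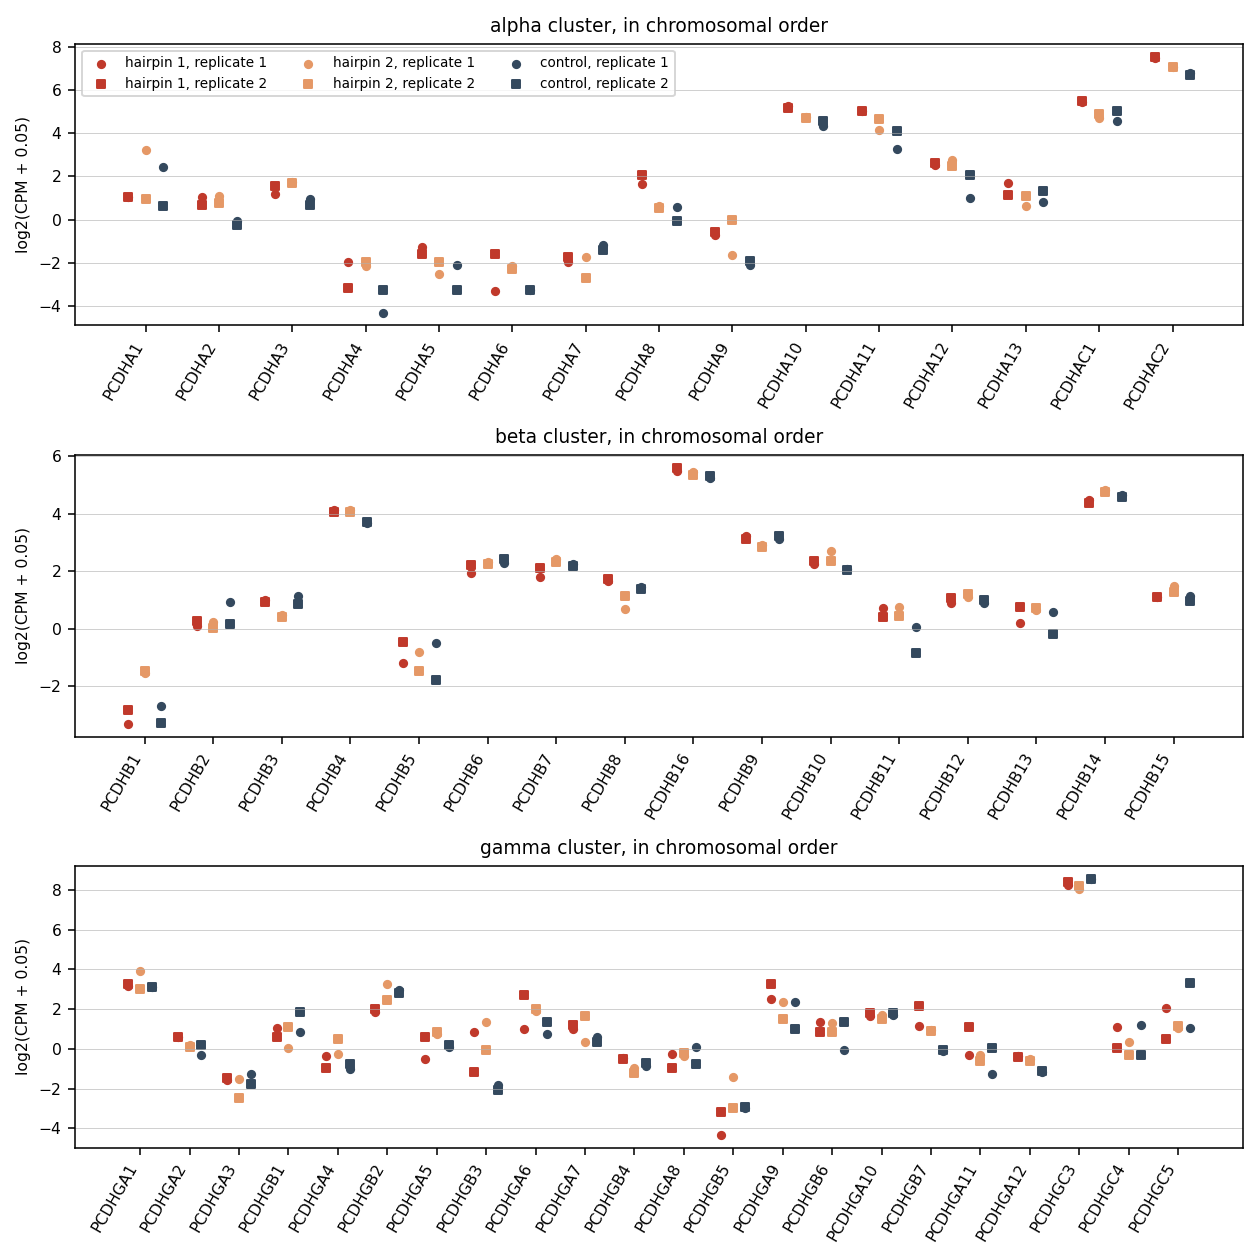
Level of each of the 53 members in each library, as log2(CPM + 0.05), with the clusters in separate panels and members in chromosomal order. Hairpin 1, hairpin 2 and control stand side by side for each gene, circles mark replicate 1 and squares replicate 2, and PCDHAC2, PCDHB16 and PCDHGC3 stand highest in their clusters.

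The question put to each cluster was how its transcript level differed between BCAT1 knockdown and control cells. Summed over its members, the alpha cluster stood at 316 and 324 CPM with hairpin 1, 233 and 235 CPM with hairpin 2, and 180 and 189 CPM in controls. The groups did not overlap, and hairpin 1 lay highest. The log2 ratio of group means was 0.80 for hairpin 1 over control and 0.34 for hairpin 2 over control, and hairpin 2 minus hairpin 1 was -0.45. The beta cluster stood at 119 and 123 CPM with hairpin 1, 126 and 119 CPM with hairpin 2, and 113 and 111 CPM in controls, with log2 ratios of 0.12 and 0.13 over control. The 4 knockdown libraries were slightly above both controls, and the hairpins overlapped each other.

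The gamma cluster went the other way, with 353 and 387 CPM with hairpin 1, 320 and 335 CPM with hairpin 2, and 420 and 422 CPM in controls. Its log2 ratios were -0.18 for hairpin 1 and -0.36 for hairpin 2 over control. That sum is nearly all PCDHGC3, which made up 82.6% to 90.3% of it. Without PCDHGC3 the other 21 gamma members together held 45.9 and 53.7 CPM with hairpin 1, 55.8 and 42.8 CPM with hairpin 2, and 40.8 and 48.2 CPM in controls. These ranges overlap, and their log2 ratios over control were of the opposite sign, at 0.16 with hairpin 1 and 0.15 with hairpin 2. In bulk cells, fewer cells with a transcript and less transcript per cell cannot be told apart. A sum over chosen members carries no test here.

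As a share of the family's CPM, the alpha cluster held 40.1% and 38.9% with hairpin 1, 34.3% and 34.1% with hairpin 2, and 25.3% and 26.2% in controls. The gamma cluster held 44.8% and 46.4% with hairpin 1, 47.2% and 48.6% with hairpin 2, and 58.9% and 58.5% in controls. The beta share stayed between 14.7% and 18.5% in all 6 libraries.

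**Figure D2:**
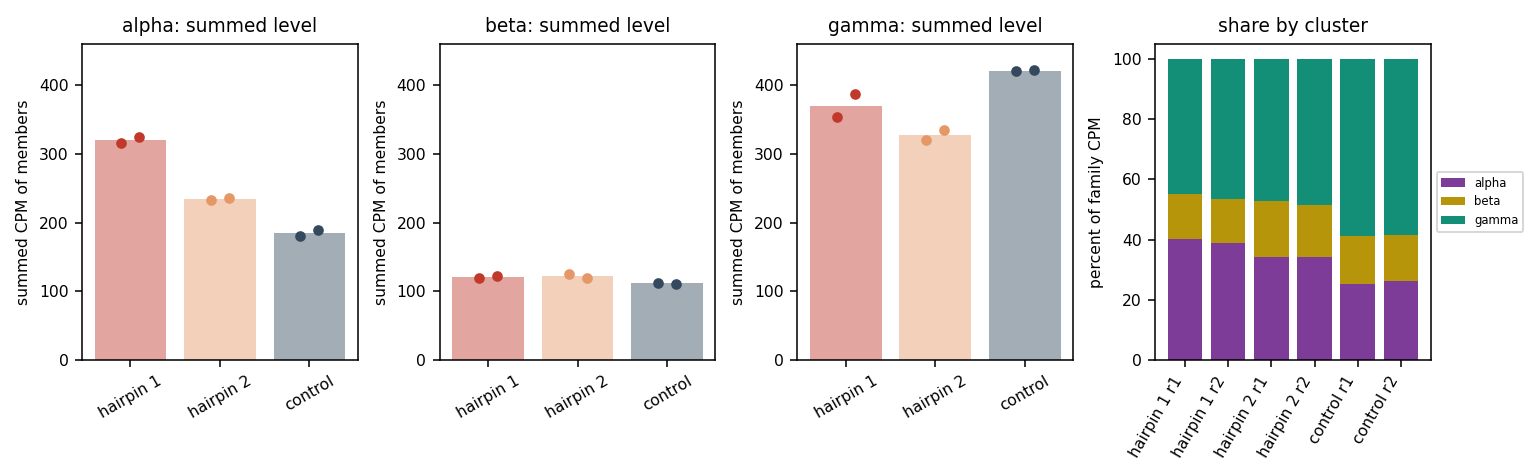
Summed CPM of the members of each cluster (bars, mean of 2 libraries; points, libraries), and the share of the family's CPM in each cluster for every library. Alpha is at 316 and 324 CPM with hairpin 1 against 180 and 189 CPM in controls, while gamma is at 320 and 335 CPM with hairpin 2 against 420 and 422 CPM in controls.

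Gene by gene, a member was called changed when its adjusted p was below 0.05 in edgeR's quasi-likelihood test over all 18734 genes that passed the filter. Of the 50 members tested, 15 were called for the mean of both hairpins against control, 14 higher and 1 lower. Over all genes tested 50.0% were called in this comparison, 23.6% higher and 26.4% lower, so the family held fewer calls than genes at large, which is no result about the members. By cluster the counts were unlike: 9 of 13 alpha members were higher and none lower, 3 of 16 beta members were higher and none lower, and 2 of 21 gamma members were higher and 1 lower. The higher members include PCDHA9 and PCDHGB3, which passed the filter only through knockdown libraries. The median log2 fold change was 0.73 over tested alpha members, 0.09 over beta members and 0.31 over gamma members. Over all genes tested it was -0.01. The alpha median includes PCDHA5, PCDHA7 and PCDHA9, the beta median PCDHB1 and the gamma median PCDHGB3. These genes passed the filter only through some groups. Without a low-count filter the medians were 0.91, 0.08 and 0.29 in the same order. With a filter of 1 CPM in at least 2 libraries they were 0.66, 0.07 and 0.32. Leaving out each library gave alpha medians of 0.62 to 0.82. With a correction for GC content and length the median was 0.60 for alpha, 0.11 for beta and 0.38 for gamma members. That correction left 6 alpha members called higher, beside 3 beta and 3 gamma members higher and 1 gamma member lower. The beta median was -0.022 without replicate 2 of the control, 0.054 without replicate 2 of hairpin 1 or replicate 1 of hairpin 2, 0.17 without replicate 1 of hairpin 1 and 0.15 without replicate 2 of hairpin 2. The gamma median was 0.061 without replicate 2 of hairpin 1 and 0.17 without replicate 1 of hairpin 2.

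For hairpin 1 against control 13 members were called, 11 higher and 2 lower, where 49.1% of all genes were called, 24.2% higher and 24.9% lower. For hairpin 2 against control 15 members were called, 13 higher and 2 lower, where 49.3% of all genes were called, 23.9% higher and 25.4% lower. Both comparisons use the same control libraries. With hairpin 1 the calls were 7 alpha members higher, 2 beta members higher, and 2 gamma members higher (PCDHGB3 among them) and 2 lower. With hairpin 2 they were 6 alpha members higher, 4 beta members higher (PCDHB1 among them) and 1 lower, and 3 gamma members higher (PCDHGB3 among them) and 1 lower. The hairpin 2 count was 9 without replicate 1 of hairpin 2 and 9 without replicate 2 of the control. With the correction for GC content and length, 4 alpha members were called higher with hairpin 2, at an alpha median of 0.32 in place of 0.44. With hairpin 1 the correction left 7 alpha members higher, at a median of 0.74 in place of 0.78. No member passed a test against a 1.5-fold change for both hairpins together or for hairpin 2, and 4 did for hairpin 1.

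**Figure D3:**
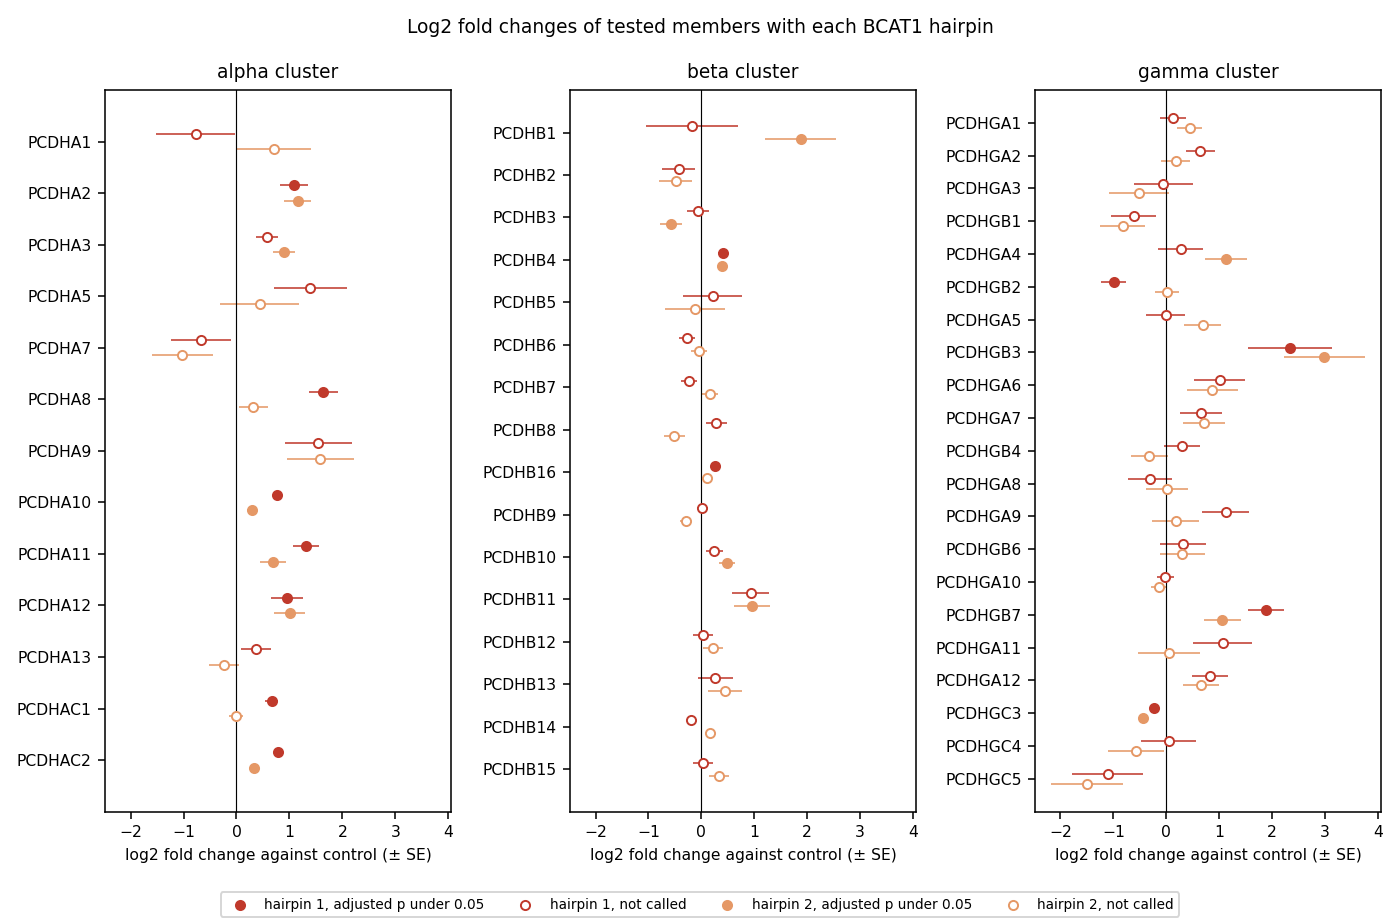
Log2 fold change against control (± SE) of every tested member with hairpin 1 (red, upper) and hairpin 2 (orange, lower), by cluster; filled points have an adjusted p below 0.05 in edgeR's test. Alpha calls lie to the right of 0 with both hairpins, and PCDHGC3 lies left of 0, at -0.23 with hairpin 1 and -0.43 with hairpin 2.

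In the alpha cluster, the leading gene was the C-type PCDHAC2 (ENSG00000243232, chromosome 5, 140966235 to 141012344). Its level was 182 and 189 CPM with hairpin 1, 136 and 137 CPM with hairpin 2, and 113 and 103 CPM in controls. All 4 knockdown libraries were above both controls, and the hairpin 1 libraries were above those of hairpin 2. Its log2 fold change was 0.56 ± 0.04 (SE) for both hairpins (edgeR adjusted p = 2.1e-05), 0.78 ± 0.05 with hairpin 1 and 0.34 ± 0.05 with hairpin 2. It made up 54.7% to 62.5% of the alpha sum in each library, and the alpha members without it still summed to 135 and 135 CPM with hairpin 1, 97.3 and 98.3 CPM with hairpin 2, and 67.7 and 85.4 CPM in controls.

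PCDHAC1, the neighbouring C-type gene (ENSG00000248383, 140926369 to 141012344), stood at 43.9 and 45.02 CPM with hairpin 1, 26.5 and 29.3 CPM with hairpin 2, and 23.7 and 32.5 CPM in controls. Hairpin 1 lay above all other libraries, while hairpin 2 lay between the controls. Its log2 fold change was 0.66 ± 0.13 with hairpin 1 (edgeR adjusted p = 0.0030) and -0.01 ± 0.13 with hairpin 2 (adjusted p = 0.96). The call over both hairpins, at 0.33 with an edgeR adjusted p of 0.043, was lost in 9 of 15 alternatives. Of the libraries left out in turn, only without replicate 2 of the control did it pass, at 0.57. The value was 0.11 without replicate 1 of the control, 0.33 without replicate 1 and 0.32 without replicate 2 of hairpin 1, and 0.36 without replicate 1 and 0.29 without replicate 2 of hairpin 2.

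PCDHA10 and PCDHA11 are alternate alpha members, each with its own promoter and first exon. PCDHA10 (ENSG00000250120, 140855883 to 141012344) stood at 38.4 and 36.4 CPM with hairpin 1, 27.3 and 26.4 CPM with hairpin 2, and 20.4 and 23.6 CPM in controls, with no overlap between groups. The log2 fold change was 0.53 ± 0.08 for both hairpins (edgeR adjusted p = 0.00049), but 0.10 and not called after a correction for GC content and length. With that correction hairpin 1 still gave 0.39 and was called, and hairpin 2 gave -0.18 in place of 0.29. The hairpin 2 call of PCDHA10 was also lost without replicate 1 (0.26) or replicate 2 (0.32) of hairpin 2 and without replicate 1 of the control (0.18).

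PCDHA11 (ENSG00000249158, 140868183 to 141012344) stood at 32.9 and 33.4 CPM with hairpin 1, 18.0 and 25.2 CPM with hairpin 2, and 9.55 and 17.2 CPM in controls. Knockdown libraries were above both controls, but hairpin 2 and control libraries were each spread widely. Its log2 fold change was 1.00 ± 0.22 for both hairpins (edgeR adjusted p = 0.0053) and 0.63 without replicate 1 of the control. With hairpin 1 it was 1.31, and with hairpin 2 it was 0.69 with an edgeR adjusted p of 0.046. The hairpin 2 call was lost without replicate 1 (0.69) or 2 (0.70) of hairpin 1, without replicate 2 of hairpin 2 (0.43) and without replicate 1 of the control (0.32), and the value was 1.18 without replicate 2 of the control.

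The other alpha calls were at lower levels. PCDHA12 stood at 5.73 and 6.13 CPM with hairpin 1, 6.76 and 5.52 CPM with hairpin 2, and 1.96 and 4.16 CPM in controls, a log2 fold change of 0.98 ± 0.26 for both hairpins (edgeR adjusted p = 0.014). The value was 0.53 without replicate 1 of the control and 1.62 without replicate 2. PCDHA2 stood at 2.04 and 1.54 CPM with hairpin 1, 2.08 and 1.67 CPM with hairpin 2, and 0.899 and 0.784 CPM in controls, a log2 fold change of 1.12 ± 0.23 (edgeR adjusted p = 0.0037) that kept its call whichever library was left out. PCDHA3 stood at 2.22 and 2.93 CPM with hairpin 1, 3.25 and 3.16 CPM with hairpin 2, and 1.88 and 1.57 CPM in controls (0.73 ± 0.18, edgeR adjusted p = 0.0100), and its call was lost without replicate 2 of the control, at 0.61. In these 3 genes all knockdown libraries lay above both controls.

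PCDHA8 (ENSG00000204962) separated the hairpins. It stood at 3.12 and 4.16 CPM with hairpin 1, 1.49 and 1.41 CPM with hairpin 2, and 1.43 and 0.892 CPM in controls. Hairpin 1 was above all other libraries, and hairpin 2 overlapped the controls. Its log2 fold change was 1.64 ± 0.27 with hairpin 1 (edgeR adjusted p = 0.0010) and 0.32 ± 0.28 with hairpin 2 (adjusted p = 0.37). Over both hairpins it was 0.98 (edgeR adjusted p = 0.0092), and 0.68 and not called without replicate 2 of the control. PCDHA9 had 0.567 and 0.616 CPM with hairpin 1, 0.273 and 0.951 CPM with hairpin 2, and 0.185 and 0.216 CPM in controls. It passed the low-count filter only through knockdown libraries, so its call is no independent support for a difference. Its call over both hairpins (1.57 ± 0.57, edgeR adjusted p = 0.048) was lost in 11 of 14 alternatives, including without each of 5 libraries, which gave 0.99 (without replicate 2 of hairpin 2) to 1.68 (without replicate 2 of the control), with 1.59 and 1.54 without replicate 1 and replicate 2 of hairpin 1 and 1.45 without replicate 1 of the control.

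The 4 tested alpha members called in no comparison were PCDHA1, PCDHA5, PCDHA7 and PCDHA13, with mean levels of 0.201 to 3.71 CPM and log2 fold changes of -0.85 to 0.92 for both hairpins. PCDHA1 stood at 2.04 and 2.03 CPM with hairpin 1, 9.39 and 1.88 CPM with hairpin 2, and 5.45 and 1.49 CPM in controls. Its replicates differed more than its groups. PCDHA7 was the alpha member below both controls in all 4 knockdown libraries, at 0.206 and 0.246 CPM with hairpin 1, 0.248 and 0.103 CPM with hairpin 2, and 0.397 and 0.324 CPM in controls, and its log2 fold change of -0.85 ± 0.48 was not called (edgeR adjusted p = 0.18).

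Most but not all promoters of clustered protocadherins carry a conserved element around the bases CGCT, near which CTCF binds. Promoter windows of RefSeq (GRCh38.p14, 250 bases before to 50 after the start) were found for 47 members, and the letters around CGCT that most members of a cluster share gave a word for each cluster, which was searched on both strands. The alpha word TGATGTCGCT was in 8 of 13 alpha windows, in no beta or gamma window, and in 0.034% of all 35116 windows. CGCT alone was in 70.0% of all windows. The stretches below show the alpha members called in any comparison whose stretches around CGCT lie wholly before the annotated start, in lower case with the word found in capitals, or with CGCT alone in capitals where no longer word was found. The alpha word and the gamma word GNCGCTGT overlap where both are present, and then the alpha word is marked. PCDHA10 holds the gamma word alone, and PCDHAC1 holds none of the 3 words.
PCDHA2, chr5:140794777-140794820, plus strand: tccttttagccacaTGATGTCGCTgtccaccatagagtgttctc
PCDHA8, chr5:140841126-140841169, plus strand: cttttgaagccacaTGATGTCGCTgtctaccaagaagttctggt
PCDHA12, chr5:140875240-140875283, plus strand: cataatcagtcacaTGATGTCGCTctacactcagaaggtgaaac
PCDHA10, chr5:140855837-140855880, plus strand: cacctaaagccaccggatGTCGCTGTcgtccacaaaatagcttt
PCDHAC1, chr5:140926216-140926259, plus strand: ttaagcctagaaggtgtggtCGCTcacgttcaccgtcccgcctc
PCDHA1, PCDHA5 and PCDHA7, which were called in no comparison, also hold the alpha word. PCDHA2 and PCDHA8 hold the same word, and their log2 fold changes with hairpin 2 were 1.15 ± 0.26 for PCDHA2 and 0.32 ± 0.28 for PCDHA8. Since the words were read from these windows, their share in their own cluster is a description. A shared word is a description of the letters, and no binding was measured.

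In the beta cluster levels were the most even between replicates. Among members with a mean of 1 CPM or more, the median absolute log2 ratio between replicates was 0.10 for beta, 0.27 for alpha and 0.48 for gamma members, and 0 of 42 beta, 3 of 30 alpha and 14 of 45 gamma replicate pairs differed by over 2-fold. PCDHB4 (ENSG00000081818, chromosome 5, 141121799 to 141125623), which overlaps no other annotated gene, stood at 17.6 and 16.7 CPM with hairpin 1, 17.3 and 16.7 CPM with hairpin 2, and 12.9 and 13.0 CPM in controls. All knockdown libraries were above both controls, and the hairpins overlapped each other. PCDHB4 had a log2 fold change of 0.40 ± 0.08 for both hairpins (edgeR adjusted p = 0.0023), 0.41 with hairpin 1 and 0.39 with hairpin 2, and it kept its call in all alternatives but the 1.5-fold threshold.

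PCDHB16 (ENSG00000272674, 141181399 to 141186399), the leading beta gene, stood at 44.9 and 48.6 CPM with hairpin 1, 43.4 and 40.9 CPM with hairpin 2, and 38.1 and 39.9 CPM in controls. The difference was small, at 0.19 ± 0.06 for both hairpins (edgeR adjusted p = 0.024) and 0.26 ± 0.07 with hairpin 1 (adjusted p = 0.010). Over both hairpins it was 0.08 and not called with the GC and length correction. It also lost its call without replicate 2 of hairpin 1 (0.16), replicate 1 of hairpin 2 (0.16) or replicate 1 of the control (0.15). For hairpin 1 against control the call was lost without replicate 2 of hairpin 1 (0.21) and without replicate 1 of the control (0.22).

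PCDHB11 stood at 1.60 and 1.29 CPM with hairpin 1, 1.64 and 1.31 CPM with hairpin 2, and 1.00 and 0.513 CPM in controls (0.94 ± 0.30 for both hairpins, edgeR adjusted p = 0.031). Its value was 1.5 without replicate 1 of the control and 0.54, not called, without replicate 2 of the control, and the call was also lost without replicate 1 of hairpin 1 (0.86) and replicate 1 of hairpin 2 (0.85). PCDHB10 stood at 4.75 and 5.08 CPM with hairpin 1, 6.49 and 5.09 CPM with hairpin 2, and 4.23 and 4.05 CPM in controls, and it was called with hairpin 2 (0.48 ± 0.16, edgeR adjusted p = 0.032). That call was lost without replicate 1 of hairpin 2 (0.29), replicate 1 of the control (0.51) or replicate 2 of the control (0.45). In both genes the knockdown libraries were above both controls.

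PCDHB3 was the beta member called lower, with hairpin 2, and this call sat on the threshold. It stood at 1.93 and 1.85 CPM with hairpin 1, 1.36 and 1.28 CPM with hairpin 2, and 2.17 and 1.78 CPM in controls. Its hairpin 2 log2 fold change was -0.58 ± 0.21 (edgeR adjusted p = 0.04999), and the call was lost in all 16 alternatives, with values of -0.71 (without replicate 2 of the control) to -0.43 (without replicate 1 of the control). PCDHB1, set apart at the start of the cluster, was detected at counts of 2 and 3 with hairpin 1, 12 and 12 with hairpin 2, and 4 and 2 in controls. The ratio of summed counts, per library size, was 3.77 for hairpin 2 over control, with an exact 95% counting interval of 1.5 to 11.3. The interval covers counting error only. PCDHB1 was tested only because hairpin 2, where it was highest, passed the low-count filter. Neither the interval nor the call is thus independent support for a difference. That edgeR call with hairpin 2 (1.87 ± 0.68, adjusted p = 0.048) held in 3 of 14 alternatives and was lost whichever library was left out, with values of 1.49 (without replicate 2 of the control) to 2.41 (without replicate 1 of the control).

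PCDHB14, PCDHB8 and PCDHB9 were called in neither comparison with control but differed between the hairpins. PCDHB14 (141222932 to 141227759) stood at 22.1 and 20.7 CPM with hairpin 1, 28.1 and 27.0 CPM with hairpin 2, and 25.2 and 23.9 CPM in controls, so that the controls lay between the hairpins. The 7 beta members called in no comparison had log2 fold changes of -0.46 to 0.36 for both hairpins, at mean levels of 0.466 to 4.71 CPM.

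The word GGTGGCGCT was in 13 of 14 beta windows, in no alpha or gamma window, and in 0.501% of all windows; PCDHB1 was the beta member without it. The next stretches show it in a member higher with both hairpins, in one called lower with hairpin 2 than with hairpin 1, and in one called higher with hairpin 2.
PCDHB4, chr5:141121719-141121762, plus strand: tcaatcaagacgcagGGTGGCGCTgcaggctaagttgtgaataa
PCDHB9, chr5:141187070-141187113, plus strand: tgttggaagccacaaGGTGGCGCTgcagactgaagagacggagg
PCDHB10, chr5:141192295-141192338, plus strand: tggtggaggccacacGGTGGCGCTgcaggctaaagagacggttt
The same word stood in promoters of beta members that rose and of those that were not called.

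In the gamma cluster, PCDHGC3 (ENSG00000240184, chromosome 5, 141475947 to 141512979) was the gene called lower for both hairpins. This C-type member stood at 308 and 333 CPM with hairpin 1, 265 and 292 CPM with hairpin 2, and 379 and 373 CPM in controls. Every knockdown library was below both controls, and hairpin 2 was below hairpin 1. PCDHGC3 had a log2 fold change of -0.33 ± 0.05 for both hairpins (edgeR adjusted p = 0.00062), -0.23 with hairpin 1 and -0.43 with hairpin 2. With the GC and length correction these were -0.17, -0.12 and -0.23, and the hairpin 1 call was lost. It was also lost without replicate 1 of hairpin 1, at -0.17. Gamma members had a median GC content of 55.2%, against 47.9% for alpha and 47.6% for beta members.

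The other C-type gamma genes were low and uneven. PCDHGC5 (141489121 to 141512979) stood at 4.15 and 1.39 CPM with hairpin 1, 2.06 and 2.21 CPM with hairpin 2, and 2.04 and 10.02 CPM in controls. One control library was far above the rest, and the log2 fold change of -1.30 ± 0.56 for both hairpins was not called (edgeR adjusted p = 0.086). It was 0.26 without that library, replicate 2 of the control, and it was called at -2.04 without replicate 1 of the control and at -1.81 without replicate 1 of hairpin 1. PCDHGC4 stood at 2.06 and 0.986 CPM with hairpin 1, 1.24 and 0.771 CPM with hairpin 2, and 2.22 and 0.756 CPM in controls. Its groups overlapped throughout.

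PCDHGB7 and PCDHGB3 were the gamma members called higher. PCDHGB7 (ENSG00000254122, 141417645 to 141512979) stood at 2.17 and 4.50 CPM with hairpin 1, 1.91 and 1.82 CPM with hairpin 2, and 0.873 and 0.919 CPM in controls. All knockdown libraries were above both controls, with a log2 fold change of 1.47 ± 0.31 for both hairpins (edgeR adjusted p = 0.0043) and 1.88 ± 0.34 with hairpin 1. The hairpin 2 call (1.06, edgeR adjusted p = 0.034) was lost without replicate 1 (1.02) or 2 (1.09) of hairpin 2 and without replicate 1 (1.02) or 2 (1.09) of the control. PCDHGB3 stood at 1.75 and 0.401 CPM with hairpin 1, 2.50 and 0.925 CPM with hairpin 2, and 0.238 and 0.189 CPM in controls. It passed the low-count filter only through knockdown libraries, so its calls against control are no independent support for a difference. Its log2 fold change of 2.66 ± 0.72 (edgeR adjusted p = 0.014) was the largest among members called for both hairpins, yet its replicates differed over 2-fold with each hairpin, and the call was lost without replicate 1 (2.84) or replicate 2 (2.51) of the control. With hairpin 1 alone PCDHGB3 was 2.34, and 0.90 without replicate 1 of hairpin 1; with hairpin 2 alone it was 2.99, and 2.09 without replicate 1 of hairpin 2.

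PCDHGB2 (ENSG00000253910, 141360042 to 141512979) was lower with hairpin 1 and not with hairpin 2. It stood at 3.53 and 3.91 CPM with hairpin 1, 9.49 and 5.50 CPM with hairpin 2, and 7.91 and 6.92 CPM in controls. Hairpin 1 was below all other libraries, and hairpin 2 spanned the controls. With hairpin 1 the log2 fold change was -0.99 ± 0.24 (edgeR adjusted p = 0.0086), lost without replicate 1 of hairpin 1 at -0.92, and with hairpin 2 it was 0.02 ± 0.23. PCDHGA4 was called with hairpin 2 (1.13 ± 0.39, edgeR adjusted p = 0.042), at 0.722 and 0.462 CPM with hairpin 1, 0.793 and 1.39 CPM with hairpin 2, and 0.450 and 0.540 CPM in controls. That call was lost without replicate 2 of hairpin 2 (0.68), replicate 1 of the control (1.00) or replicate 2 of the control (1.27).

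Among the gamma members at the highest levels, PCDHGA1 and PCDHGA9 were not called. PCDHGA1 stood at 9.0 and 9.71 CPM with hairpin 1, 15.1 and 8.15 CPM with hairpin 2, and 8.54 and 8.65 CPM in controls. PCDHGA9 stood at 5.62 and 9.65 CPM with hairpin 1, 5.05 and 2.83 CPM with hairpin 2, and 5.02 and 1.95 CPM in controls. In both, the groups overlapped or replicates differed about as much as groups. In all, 16 gamma members were called in no comparison, with log2 fold changes of -1.30 to 0.94 for both hairpins and mean levels of 0.272 to 9.86 CPM. Most gamma members behind the median of 0.31, which was 0.061 without replicate 2 of hairpin 1, were thus not called, while the lower gamma sum was that of PCDHGC3.

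The word GNCGCTGT was in 17 of 20 gamma windows, 5 of 13 alpha windows, 1 of 14 beta windows and 4.346% of all windows. It stood in PCDHGC3, which was lower, in PCDHGB2, which differed between hairpins, and in PCDHGA9 and PCDHGC4, which were not called.
PCDHGC3, chr5:141475876-141475919, plus strand: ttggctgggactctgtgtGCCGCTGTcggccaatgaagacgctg
PCDHGB2, chr5:141359917-141359960, plus strand: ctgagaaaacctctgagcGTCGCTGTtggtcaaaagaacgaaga
PCDHGA9, chr5:141402710-141402753, plus strand: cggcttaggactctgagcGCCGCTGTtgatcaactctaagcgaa
PCDHGC4, chr5:141484948-141484991, plus strand: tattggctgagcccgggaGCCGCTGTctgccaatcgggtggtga
Of the gamma members called higher in any comparison with control, PCDHGB3 and PCDHGB7 held CGCT without the longer word. PCDHGA4 held the longer word, so members that rose were found both with and without it.

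Between the hairpins, 10 of 50 members were called in edgeR's test, 3 higher and 7 lower with hairpin 2 than with hairpin 1, where 46.2% of all genes were called, 22.9% higher and 23.3% lower. This contrast uses no control library. The alpha calls, PCDHAC2, PCDHA10, PCDHAC1 and PCDHA8, were all lower with hairpin 2, at log2 differences of -0.44 ± 0.05, -0.48 ± 0.08, -0.67 ± 0.13 and -1.32 ± 0.26. These 4 kept their calls whichever library was left out. BCAT1 itself was higher with hairpin 2 than with hairpin 1 by 1.03 ± 0.04. PCDHGC3 was lower with hairpin 2 (-0.20 ± 0.06, edgeR adjusted p = 0.021), and this call was lost without replicate 2 of hairpin 1 (-0.15) or replicate 1 of hairpin 2 (-0.14), and with the GC and length correction (-0.11). The family count fell to 6 without replicate 1 of hairpin 2.

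Related genes were described by lists, whose counts for both hairpins stand beside the 23.6% higher and 26.4% lower over all genes tested. The promoter choice and chromatin list holds the architectural, methylation and repression factors that act on these clusters or on chromatin at large. Of its 25 tested members 14 were called higher and 5 lower for both hairpins, with a median of 0.17, where 50.0% of all genes were called either way. SMCHD1, a chromatin protein that represses protocadherin clusters and the inactive X, averaged 60.6 ± 2.8 CPM with hairpin 1, 44.8 ± 0.18 CPM with hairpin 2 and 27.1 ± 0.032 CPM in controls (SD, n = 2 each), a log2 fold change of 0.94 ± 0.05 in edgeR. NIPBL, the cohesin loader, averaged 109 ± 0.058, 112 ± 2.0 and 65.0 ± 5.4 CPM in hairpin 1, hairpin 2 and control cells (0.77 ± 0.05). PDS5A, a cohesin regulator, averaged 222 ± 2.2, 208 ± 2.6 and 153 ± 2.0 CPM in hairpin 1, hairpin 2 and control cells (0.49 ± 0.03).

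Genes of the signalling that protocadherin tails are known to engage were mixed, with 12 of 23 called higher and 7 lower and a median of 0.14, beside 23.6% and 26.4% of all genes. RET, a receptor kinase that binds alpha and gamma protocadherins, averaged 459 ± 4.0 CPM with hairpin 1, 604 ± 5.0 CPM with hairpin 2 and 947 ± 28 CPM in controls (-0.85 ± 0.03). NCKAP1, a subunit of the WAVE complex, was higher (0.70 ± 0.05), as was the protein kinase C gene PRKCE (0.42 ± 0.04). Of the 8 genes of the proteolysis list, which cleaves these proteins at the surface and in the membrane, 2 were called higher and 3 lower, a share near the 50.0% over all genes. The sheddase ADAM10 rose (0.39 ± 0.04), and the gamma-secretase subunit APH1A fell (-0.62 ± 0.04). The sheddase ADAM17, at 0.38 ± 0.05 for both hairpins, was called with hairpin 2 (0.63 ± 0.05) and not with hairpin 1 (0.13 ± 0.05, edgeR adjusted p = 0.083). Hairpin 2 minus hairpin 1 was 0.51 for ADAM17 (edgeR adjusted p = 9.5e-05).

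Protocadherins outside the clusters had a median of 0.58 over 9 tested of 12, with 3 called higher and 1 lower, near the 50.0% called over all genes. PCDH9 averaged 196 ± 3.5 CPM with hairpin 1, 109 ± 2.1 CPM with hairpin 2 and 78.8 ± 4.7 CPM in controls (0.89 ± 0.04), PCDH7 was higher by 0.58 ± 0.09, and PCDH1 was lower, with a log2 fold change of -0.47 ± 0.04. Classical and type II cadherins had a median of -0.03 over 11 tested of 19, with 3 called higher and 2 lower, again near that share. CDH4 (-0.93 ± 0.09) and CDH11 (-0.53 ± 0.05) fell. CDH7 averaged 21.5 ± 1.2 CPM with hairpin 1, 6.43 ± 0.58 CPM with hairpin 2 and 7.09 ± 0.25 CPM in controls, so that it was high with hairpin 1 alone. Of 14 tested genes next to the clusters on chromosome 5, 1 was called higher and 5 lower, with a median of -0.10 beside 0.73 for the alpha cluster; 50.0% of all genes were called either way. Among them NDUFA2 (-0.55 ± 0.05) and HDAC3 (-0.46 ± 0.05) fell. DIAPH1, at 0.20 ± 0.04 for both hairpins, was called higher with hairpin 1 (0.39 ± 0.04) and not with hairpin 2 (0.01 ± 0.04, edgeR adjusted p = 0.90), and hairpin 2 minus hairpin 1 was -0.38 (edgeR adjusted p = 0.00015). Lower medians with hairpin 2 than with hairpin 1 were not confined to alpha members (-0.44). They were -0.42 for classical and type II cadherins, -0.27 for the chromosome 5 neighbours and -0.23 for protocadherins outside the clusters. Signalling genes had -0.12, the promoter choice and chromatin list -0.03, proteolysis 0.17 and all genes tested 0.01.

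**Figure D4:**
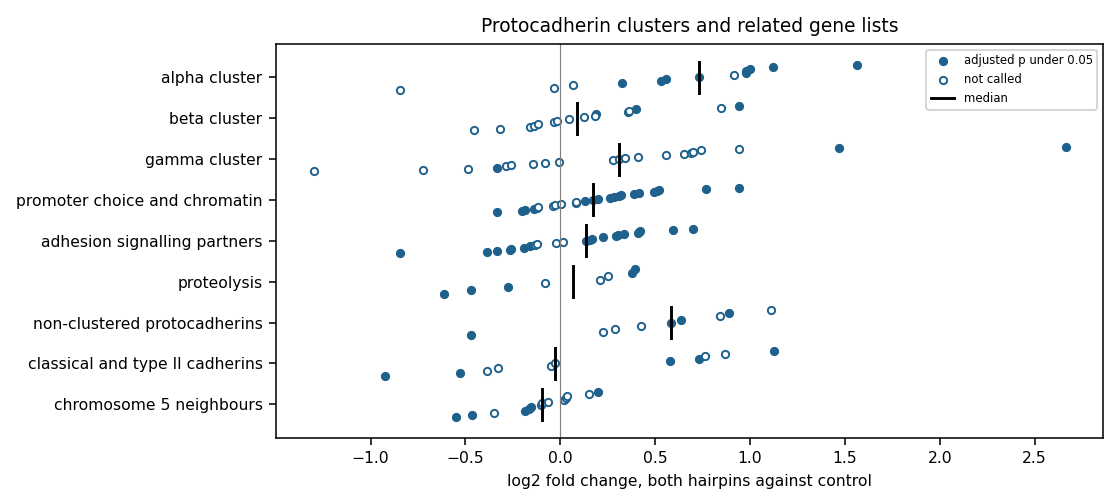
Log2 fold change of both hairpins against control for each tested gene of the 3 clusters and the related lists; filled points have an adjusted p below 0.05 in edgeR's test and bars mark medians. The alpha median of 0.73 and the non-clustered protocadherin median of 0.58 lie right of the other medians, which run from -0.10 to 0.31. Medians of the clusters include members that passed the low-count filter only through some groups.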

How the data were processed

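The authors deposited unnormalized read counts, whole numbers for each Ensembl gene, in 6 libraries. TRIzol extraction and a TruSeq RNA kit are stated in the labels' protocols. The submitters' processing notes name HISAT2 2.2.0, StringTie and hg38. Annotation, counting options and strand setting were not given in the sources used here. Symbols came from a name table holding 56105 of the IDs.

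Counts were tested in R 4.3.3 with edgeR 4.0.16: filterByExpr by group (minimum count 10), TMM, and the two-sided quasi-likelihood test with a term per group, all 6 libraries and 3 residual degrees of freedom, with Benjamini-Hochberg adjustment over 18734 genes and a threshold of 0.05. CPM uses TMM library sizes, and 3 counts are 0.0743 to 0.0924 CPM. Intervals and this floor cover counting error only. The test was tested on data simulated with the same spread beyond counting for every gene. That check does not cover members with uneven replicates. Replicates differed beyond sampling noise (mean chi-square per gene 5.73 to 8.23) and the common coefficient of variation was 8.66%. All libraries were kept. Alternatives were RLE size factors, no or a stricter filter, DESeq2 1.42.0, limma-voom (limma 3.58.1), a replicate block, GC and length correction (13907 genes), a 1.5-fold threshold, fewer groups and leaving out each library.

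Members, lists and words were chosen with earlier results of these data known. Named were BCAT1, the C-type members, the 5 tested members at the highest level in each cluster and every member called in any comparison. By this rule 27 members were named, of which 23 were called in any comparison. The 3 genes of each list with the smallest p were named too. PCDHA1 and PCDHA7 were added after their values were seen. A further marker gene, beside those named, is not reported here.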

Additional observations from a re-analysis of the deposited data

Results flagged for a closer look

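In 10 members the effect of the hairpins differed, by edgeR's test of hairpin 2 against hairpin 1. The log2 difference, hairpin 2 minus hairpin 1, was -0.44 for PCDHAC2, -0.48 for PCDHA10, -0.67 for PCDHAC1 and -1.32 for PCDHA8 in the alpha cluster. In the beta cluster it was 0.36 for PCDHB14, -0.79 for PCDHB8, -0.32 for PCDHB9 and 2.05 for PCDHB1. In the gamma cluster it was 1.01 for PCDHGB2 and -0.20 for PCDHGC3.

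PCDHB8 stood at 1.56 and 2.13 CPM with hairpin 2, against 3.09 and 3.30 CPM with hairpin 1, with controls at 2.72 and 2.54 CPM. PCDHB9 stood at 7.43 and 7.09 CPM with hairpin 2, against 9.36 and 8.72 CPM with hairpin 1, with controls at 8.62 and 9.24 CPM. In both genes hairpin 2 lay below all other libraries. The PCDHB8 call was lost without replicate 1 of hairpin 2 (-0.59) or replicate 2 of hairpin 1 (-0.75). The PCDHB9 call (edgeR adjusted p = 0.043) was lost whichever library was left out, with values of -0.37 to -0.26. PCDHB1 rests on 24 counts with hairpin 2 and 5 with hairpin 1, a ratio of 4.31 with an exact 95% counting interval of 1.61 to 14.5, and its call too was lost whichever library was left out, with values of 1.68 to 2.48. It passed the low-count filter only through hairpin 2, the group where it was highest. Neither this call nor the interval is thus independent of the filter. The PCDHGB2 call was lost without replicate 1 of hairpin 1 (0.94), and the value was 0.56 without replicate 1 of hairpin 2.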

How the results depend on the processing

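Scaling by library totals alone shifted every gene by 0.07 (log2) with hairpin 1 and 0.11 with hairpin 2 against control. Summed levels then gave, over control, 0.86 (hairpin 1) and 0.45 (hairpin 2) for alpha, 0.18 and 0.24 for beta, and -0.25 with hairpin 2 for gamma, and -0.41 for alpha between hairpins. A geometric mean of tested members gave 0.45 for alpha with hairpin 2 and -0.30 between hairpins, and for gamma 0.32 with hairpin 1 and 0.25 with hairpin 2, which turned the sign, and -0.071 between hairpins. Without the highest member gamma was 0.16, 0.15 and, between hairpins, -0.015, and beta was 0.031 with hairpin 1 and 0.11 between hairpins; PCDHGC3 makes up most of the gamma sum. A 1.5-fold threshold left 0 calls for both hairpins, 4 for hairpin 1, 0 for hairpin 2 and 1 between hairpins. For hairpin 2, 8 members were called without a filter and 9 by DESeq2. The cause was not tested. Leaving out each library gave 12 to 16 calls for both hairpins, 11 to 15 for hairpin 1, 9 to 13 for hairpin 2 and 6 to 11 between hairpins. PCDHA10 with hairpin 2 was -0.18 with GC and length correction, and -0.18 with the replicate block added.

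Same-numbered replicates did not deviate together over all genes tested (correlations 0.00, -0.04 and -0.03). A correlation over all genes cannot exclude a shared culture or preparation that acted on few of them. With the replicate block 15, 14, 12 and 9 members were called for both hairpins, hairpin 1, hairpin 2 and between hairpins, and with the GC and length correction as well 12, 16, 13 and 13. With 2 libraries a group, members near 1 CPM have wide errors, and a missed call there does not show equality.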
